A study of Mus musculus with 20 samples.

Results

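The membrane-spanning 4A genes *Ms4a4b*, *Ms4a4c*, *Ms4a6b*, *Ms4a6c*, *Ms4a6d* and *Ms4a7* were taken by symbol from the count table of the series, as 6 of its 16003 genes. Their levels were read in 14 clusters of spinal cord cells and 6 libraries. The 6 genes were proposed together as a family of myeloid cells, and 5 of them were at their highest level in the monocyte or monocyte-derived macrophage (MDM) cluster, or next to highest there. *Ms4a4b* went against that description, because 88.8% of its UMIs (unique molecular identifiers, 1 per captured transcript) lay in the T cell cluster, and *Ms4a6b* was shared between T cells and myeloid cells.

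Proteins of this family cross the membrane several times, sit in the plasma or endosomal membrane, and often travel with a signaling receptor that they help to place or tune. The best known relative is *Ms4a1*, which encodes the B cell antigen CD20. In tissue macrophages *Ms4a7* is widely used as a marker of cells other than homeostatic microglia, the resident macrophages of the brain and spinal cord, and *Ms4a6c* and *Ms4a6d* are typical of monocytes and macrophages, whereas *Ms4a4b* is known from T cells and natural killer cells.

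The study asked what microglia do after spinal cord injury (SCI) by removing them with PLX5622, an inhibitor of the colony-stimulating factor 1 receptor given in chow from 14 days before surgery to the end point. All mice were female C57BL/6J of 8 to 10 weeks. Single cells came from spinal cord after sham surgery (laminectomy only) or at 7 or 28 days post-injury (dpi) after a 75 kdyne contusion at T9, each under vehicle chow or PLX5622 chow. Each of these 6 groups was 1 library made from a pool of 3 to 4 mice, and the label of each sham library names both days. No group therefore has a replicate, no test could be made, and every interval given here is a 95% interval that covers counting error only. Levels are CPM (UMIs of a gene in every 1e+06 UMIs) of a cluster in a library, with exact Poisson intervals. Ratios are log2 ratios of CPM with exact conditional binomial intervals. PLX5622 acts on a receptor that other macrophages also carry, the cords were taken with their meninges from unperfused mice, and the depletion left few cells of the myeloid clusters.

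The table held 1795, 7439 and 9846 cells of the vehicle sham, 7 dpi and 28 dpi libraries and 492, 504 and 940 of the PLX5622 libraries, with 2606149 to 35694246 UMIs per library. The deposited clusters are numbered, and each was named here for the marker list with most genes highest in it. Of 79 markers of the 14 cell types, 74 were detected and 65 were highest in the cluster they name. That was 4 of 6 for MDMs (*Cd36* and *Fn1* were highest in other clusters) and 3 of 6 for the leptomeningeal cluster. Because the names came from these same markers, the count is no separate check of them. Only 44 barcodes occurred in more than 1 library (88 cells, 0.419% of all). After injury, MDM markers were also counted in clusters named for other cell types. The summed level of the 6 MDM markers in endothelial cells was 1174 CPM in vehicle sham and 8495 CPM at 7 dpi, in astrocytes 932 and 12930 CPM, and in MDMs at 7 dpi 37444 CPM. The endothelial and astrocyte clusters are given beside the myeloid members for this reason. The study named perivascular macrophages as a subset of its endothelial cluster. Within its astrocyte cluster it named an inflammation subset, with *Fcer1g* and *C1qc*, which it treats as astrocytes. How much of the counts in the endothelial and astrocyte clusters came from macrophages was not tested.

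The 6 genes lie together on chromosome 19, within 283811 bases of mouse build GRCm38 (chr19:11321039-11604849). *Ms4a7* (chr19:11321039-11336146) and *Ms4a6d* (chr19:11586604-11604849) are on the minus strand, and *Ms4a4c* (chr19:11404770-11427246), *Ms4a4b* (chr19:11443553-11467055), *Ms4a6c* (chr19:11469366-11482192) and *Ms4a6b* (chr19:11516512-11531256) on the plus strand. Coding sequences of *Ms4a4b* and *Ms4a4c* were identical at 91.7% of aligned bases, those of *Ms4a6b* and *Ms4a6c* at 85.0%, *Ms4a6b* and *Ms4a6d* at 80.6%, and *Ms4a6c* and *Ms4a6d* at 77.0%. The other 11 pairs were between 51.3% and 59.2%. Near-identical copies can share reads, yet in the last 500 bases of the transcripts, where 3' libraries are read, at most 2.83% of 90-base stretches of a member (*Ms4a4c*, shared with *Ms4a4b*) occurred in another. The share was 1.70% for *Ms4a6c*, with *Ms4a6b*, and 0 for the other members. These are shares of sequence, and how many UMIs were counted for the wrong member was not measured.

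RefSeq promoter sequences (GRCm38.p6) were found for 5 of the 6 members, in 6 entries. The 250 bases before the start are shown for 5 entries because the closest paralogs, which differ in the cells that hold them, keep the same short element near the start. Capitals mark GGAAGT, part of the site read by PU.1 (a transcription factor of the Ets family that myeloid and B cells need), on either strand (ACTTCC on the other). *Ms4a4b* is at chr19:11443308-11443557 (+), *Ms4a4c* at chr19:11407411-11407660 (+), *Ms4a6b* at chr19:11518309-11518558 (+), *Ms4a6c* at chr19:11469118-11469367 (+) and the second entry of *Ms4a7* at chr19:11336147-11336396 (-), each printed 5′ to 3′ on its own strand.
Ms4a4b: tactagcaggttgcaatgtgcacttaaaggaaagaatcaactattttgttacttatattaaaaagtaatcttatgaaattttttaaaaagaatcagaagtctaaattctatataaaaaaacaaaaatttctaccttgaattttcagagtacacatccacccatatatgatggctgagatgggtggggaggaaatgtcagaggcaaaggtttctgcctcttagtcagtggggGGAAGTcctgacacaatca
Ms4a4c: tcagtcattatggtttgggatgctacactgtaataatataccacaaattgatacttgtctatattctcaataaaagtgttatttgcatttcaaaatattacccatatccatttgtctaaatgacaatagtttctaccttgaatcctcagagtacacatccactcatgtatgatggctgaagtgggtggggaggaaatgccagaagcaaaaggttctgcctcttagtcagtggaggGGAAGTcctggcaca
Ms4a6b: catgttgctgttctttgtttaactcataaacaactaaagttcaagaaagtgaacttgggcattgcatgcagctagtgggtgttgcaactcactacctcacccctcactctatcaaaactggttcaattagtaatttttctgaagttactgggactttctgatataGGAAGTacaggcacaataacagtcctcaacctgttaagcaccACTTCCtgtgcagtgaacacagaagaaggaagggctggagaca
Ms4a6c: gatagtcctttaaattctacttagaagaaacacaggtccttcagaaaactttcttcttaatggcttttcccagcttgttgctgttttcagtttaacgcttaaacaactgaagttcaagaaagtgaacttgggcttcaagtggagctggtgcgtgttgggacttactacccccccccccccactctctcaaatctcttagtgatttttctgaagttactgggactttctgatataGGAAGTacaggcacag
Ms4a7: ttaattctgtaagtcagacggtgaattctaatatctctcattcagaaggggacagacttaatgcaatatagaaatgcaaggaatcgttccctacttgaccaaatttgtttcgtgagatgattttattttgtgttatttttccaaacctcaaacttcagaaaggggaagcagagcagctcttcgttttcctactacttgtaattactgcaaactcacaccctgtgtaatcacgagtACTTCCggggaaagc

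GGAAGT occurred in these 5 entries and not in the first *Ms4a7* entry, against 19.7% of 32851 promoters of the same 250 bases. It began 19 bases before the start in *Ms4a4b*, 15 in *Ms4a4c*, 16 in *Ms4a6c* and, on the other strand, 15 in the second *Ms4a7* entry, and *Ms4a6b* had it at 85 and, on the other strand, at 43 bases. GAAA followed by any 2 bases and GAAA again, part of the interferon response element, occurred in none of the 6 entries on either strand, and in 2.98% of all promoters. The windows of *Ms4a6b* and *Ms4a6c* were identical at 85.1% of 175 aligned bases and those of *Ms4a4b* and *Ms4a4c* at 69.1% of 243. These matches are letters in a window, and the series holds no measurement of binding there.

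Summed over the 6 libraries, each member had its own order of clusters. *Ms4a7* was highest in MDMs at 537 CPM (529 to 544), followed by the erythroid cluster at 355 CPM (306 to 409) and monocytes at 319 CPM (302 to 337), which overlapped. The erythroid level rests on the vehicle 7 dpi library, where 58 cells held 182 of its 191 UMIs (700.0 CPM), against 28.2 CPM in vehicle sham, 59.0 CPM at 28 dpi and 0 UMIs under PLX5622. *Ms4a6c* was highest in monocytes at 839 CPM (811 to 868), then in the dividing cells of the intermediate progenitor cluster at 431 CPM, in MDMs at 394 CPM, in the erythroid cluster at 280 CPM (237 to 329) and in microglia at 227 CPM. The erythroid value again rests on vehicle 7 dpi, which held 132 of its 151 UMIs (508 CPM, against 28.2 CPM in sham and 0 UMIs under PLX5622). Intermediate progenitors and MDMs overlapped at vehicle 7 dpi (463 to 519 and 463 to 482 CPM) and stood in the other order at PLX5622 28 dpi, at 147 and 238 CPM. *Ms4a6d* was almost level, at 182 CPM in monocytes, 175 CPM in MDMs, 146 CPM in intermediate progenitors and 132 CPM in microglia, with overlap between monocytes and MDMs and between intermediate progenitors and microglia. *Ms4a4c* was at 187 CPM in monocytes (173 to 201), apart from B cells at 72.3 CPM and T cells at 55.3 CPM, whose intervals overlapped. *Ms4a6b* was at 389 CPM in T cells (361 to 418), 232 CPM in monocytes, 90.8 CPM in intermediate progenitors and 67.5 CPM in microglia. *Ms4a4b* stood at 1272 CPM in T cells (1222 to 1325), and the next cluster, intermediate progenitors, was at 27.1 CPM. These are orders of sums, to which the libraries gave unequal shares of each cluster, and they did not hold in every library. In vehicle sham *Ms4a7* was at 222 CPM in monocytes (181 to 269) and 185 CPM in MDMs (164 to 209), and *Ms4a4c* at 325 CPM in monocytes and 314 CPM in B cells (199 to 471), with overlap in each pair. At PLX5622 28 dpi *Ms4a6d* was at 61 CPM in monocytes and 170 CPM in MDMs, without overlap.

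**Figure D1:**
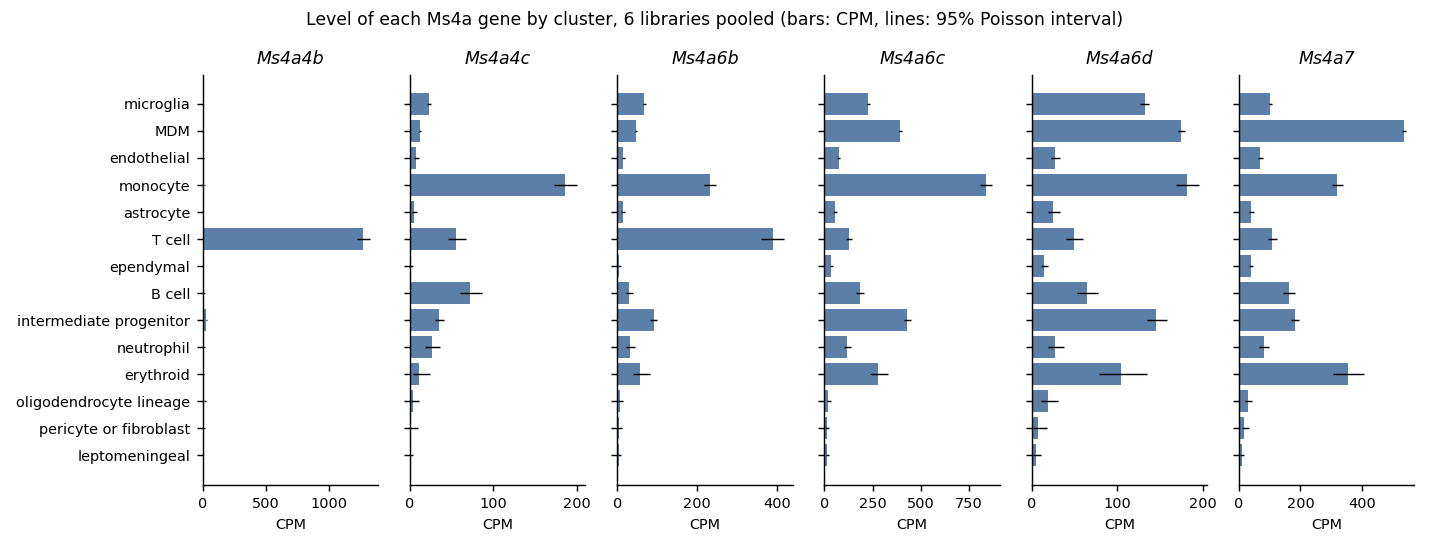
Level of each Ms4a gene in the 14 clusters, in CPM, with UMIs summed over the 6 libraries and exact Poisson 95% intervals as lines. *Ms4a7* peaks in MDMs at 537 CPM, *Ms4a6c* and *Ms4a4c* in monocytes at 839 and 187 CPM, and *Ms4a4b* in T cells at 1272 CPM.

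Summed over the 6 libraries, most UMIs of the macrophage members came from MDMs. MDMs held 80.0% of *Ms4a7* UMIs, 61.4% of *Ms4a6d* and 58.8% of *Ms4a6c*. For *Ms4a6b* the shares were spread over MDMs (34.3%), microglia (22.7%), monocytes (17.3%) and T cells (13.8%). *Ms4a4c* was divided between monocytes (35.6%), MDMs (22.8%) and microglia (19.4%). Single libraries differed from these sums. In vehicle sham, microglia held 280 of 655 *Ms4a6d* UMIs and MDMs 229, and monocytes held 532 of 1401 *Ms4a6c* UMIs and MDMs 453. In PLX5622 sham, monocytes held 136 of 177 *Ms4a6c* UMIs and MDMs 19. In the PLX5622 28 dpi library, 61.4% of *Ms4a6b* UMIs were in T cells, against 14.8% in the vehicle library of that day. These shares follow cell numbers, RNA per cell and level together, which a sum over a library cannot tell apart.

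**Figure D2:**
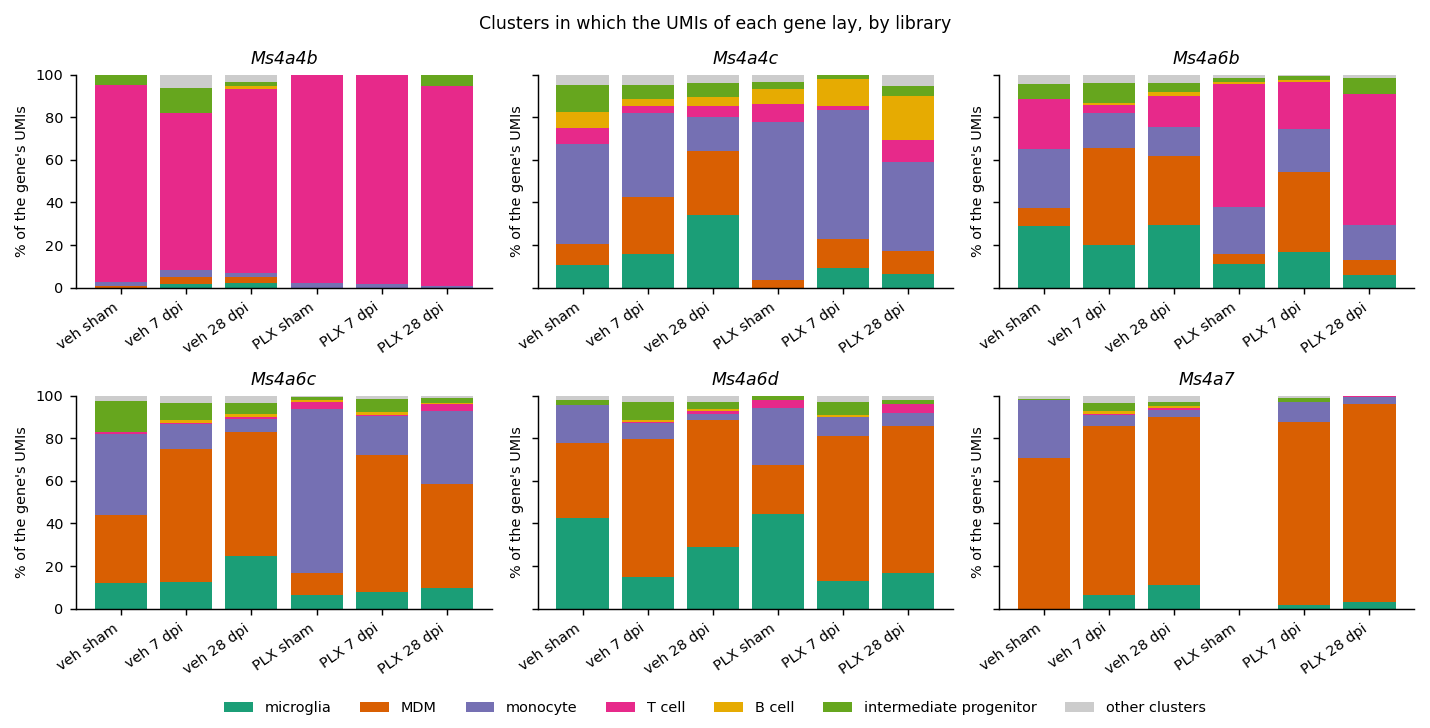
Percent of each gene's UMIs in a library that came from each cluster, 1 bar per library. MDMs give 79.5% of *Ms4a7* at vehicle 7 dpi and 93.0% at PLX5622 28 dpi, T cells give most of *Ms4a4b* in every library, and the bar for *Ms4a7* in PLX5622 sham is empty because the table holds 0 UMIs there.

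*Ms4a7* in MDMs was the member with the widest range over injury. Its level was 185 CPM in vehicle sham (164 to 209, 263 UMIs), 709 CPM at 7 dpi (698 to 721, 14098 UMIs) and 312 CPM at 28 dpi (303 to 322, 4330 UMIs), so the 7 dpi library stood above both others and no interval overlapped. The log2 ratio to sham was 1.94 at 7 dpi (1.76 to 2.12), a 3.82-fold higher level, and 0.75 at 28 dpi (0.57 to 0.94), and 28 dpi was below 7 dpi by a log2 ratio of -1.18 (-1.23 to -1.13). The sham library had 185 cells in this cluster. The share of MDMs with at least 1 *Ms4a7* UMI, after every cell was thinned to 1000 UMIs, was 8.57% in sham (4.88% to 13.7%), 44.5% at 7 dpi (42.8% to 46.3%) and 24.2% at 28 dpi (22.8% to 25.8%). Without thinning it was 23.2%, 83.1% and 50.3%, at median depths of 5769, 5777 and 3875 UMIs per cell. In endothelial cells the thinned share was 0 of 76 cells in sham, which allows up to 4.74%. It was 6.35% at 7 dpi and 1.98% at 28 dpi. The median depths in sham, 7 dpi and 28 dpi were 3023.5, 2409 and 1342 UMIs.

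The other members of MDMs were flatter. *Ms4a6c* was at 319, 472 and 302 CPM in vehicle sham, 7 dpi and 28 dpi, with log2 ratios to sham of 0.56 (0.43 to 0.70) and -0.08 (-0.22 to 0.06), the latter above 0 with TMM factors (0.20). *Ms4a6d* was at 161, 181 and 162 CPM, and both ratios to sham had intervals that held 0. *Ms4a6b*, at 38.1, 60.0 and 33.3 CPM, was higher at 7 dpi by a log2 ratio of 0.66 (0.26 to 1.08). *Ms4a4c* was low throughout at 22.6, 10.6 and 14.4 CPM and was lower at 7 dpi by -1.09 (-1.63 to -0.50). A ratio was counted only for a gene whose UMIs in the pair of libraries came to 100 or more. By that rule 1 of 5 members was at least 2-fold higher at 7 dpi than sham, against 4.09% of 8303 genes, and 1 of 5 was at least 2-fold lower, against 11%. The median log2 ratio was 0.56 over these 5 members and -0.25 over all those genes. At 28 dpi none of the 5 was 2-fold apart from sham (1.53% of genes were higher and 5.63% lower), and against 7 dpi 1 of 5 was lower (3.6% of genes). When totals were rescaled by TMM (edgeR) or by DESeq2's median ratios, or when cells were thinned, *Ms4a7* at 28 dpi passed 2-fold over sham, at log2 ratios of 1.04, 1.13 and 1.21, and with TMM, DESeq2 or each cell weighted alike *Ms4a4c* at 7 dpi did not pass it (-0.79, -0.64 and -0.99). With DESeq2's factors *Ms4a6b* (1.10) and *Ms4a6c* (1.01) passed 2-fold at 7 dpi as well, so that 3 of 5 members were higher. Such factors shift every gene of the comparison alike. The 4.09% of genes above is for plain CPM and is no background for that count.

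**Figure D3:**
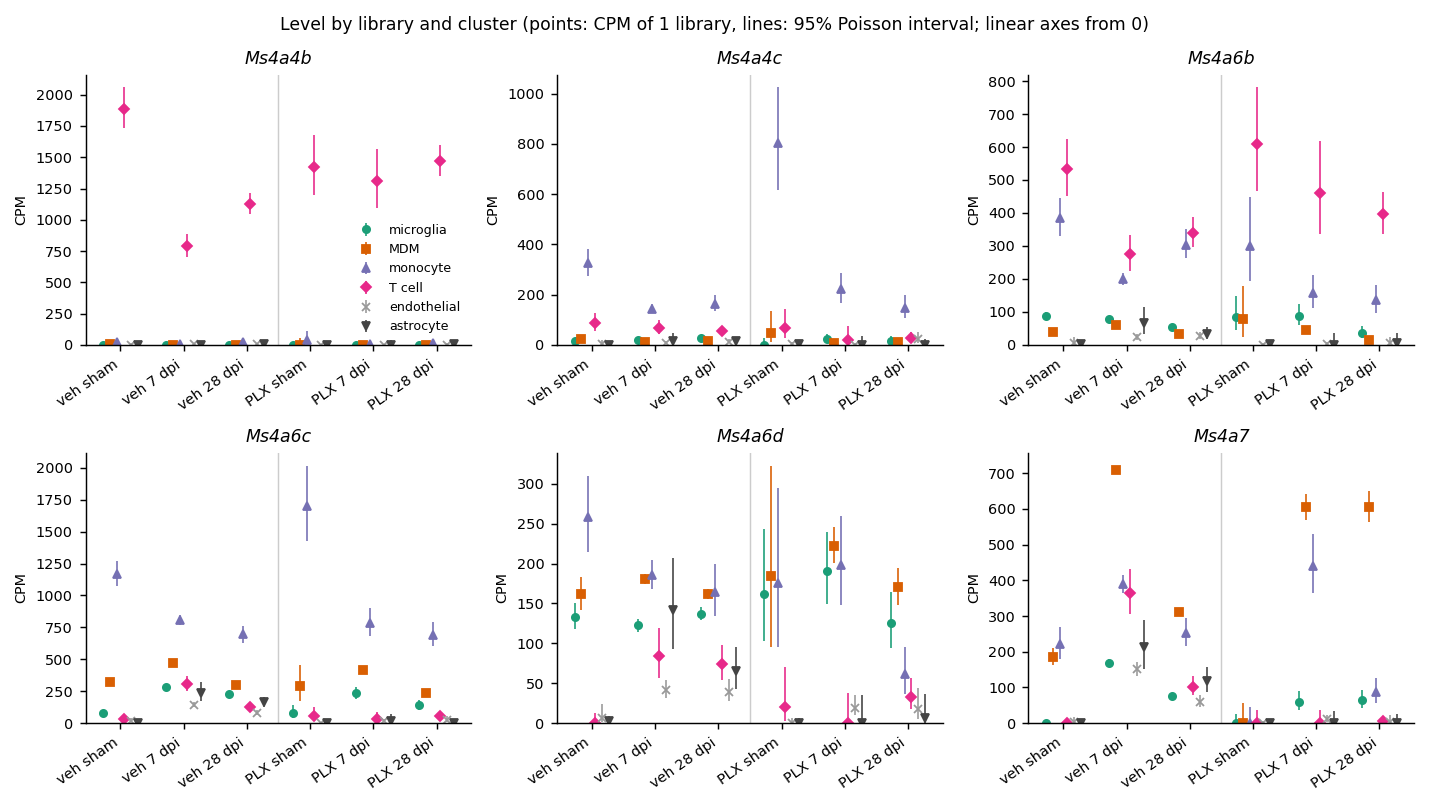
Level of each Ms4a gene in CPM in the 6 libraries, for microglia, MDMs, monocytes and T cells and for endothelial cells and astrocytes, with exact Poisson 95% intervals as lines and 1 library (a pool of 3 to 4 mice) per point. *Ms4a7* in MDMs is highest at vehicle 7 dpi (709 CPM) and lower than that under PLX5622 at both days (605 and 605 CPM). *Ms4a6c* in monocytes is highest in the sham libraries (1167 and 1705 CPM).

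Microglia of sham cord carried no *Ms4a7* UMI. The vehicle sham library had 0 UMIs in 674 microglia (up to 1.76 CPM), against 169 CPM at 7 dpi (159 to 179, 1141 UMIs) and 76.7 CPM at 28 dpi (70.7 to 83.0, 608 UMIs). With a floor of 3 counts (1.43 CPM) in the sham library, the level was at least 118-fold higher at 7 dpi and at least 53.6-fold higher at 28 dpi. These bounds hold for that floor, which lies below the upper limit of 1.76 CPM, and are smaller at that limit. The 28 dpi level was lower than 7 dpi by a log2 ratio of -1.14 (-1.28 to -1.0). MDMs of the same libraries were higher by log2 ratios of 2.07 (1.98 to 2.16) and 2.03 (1.90 to 2.15). Over all cells of the clusters, endothelial cells and astrocytes were at levels of similar size. At 7 dpi endothelial cells were at 150 CPM and astrocytes at 212 CPM, so that microglia were 1.13-fold endothelial cells (0.97 to 1.31) and 0.80-fold astrocytes (0.58 to 1.13). At 28 dpi these were 59.7 CPM and 118 CPM, or 1.28-fold (0.97 to 1.73) and 0.65-fold (0.48 to 0.89). T cells went from 0 UMIs to 365 CPM and B cells from 0 UMIs to 302 CPM at 7 dpi.

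Called doublets held part of these UMIs. When the 1256 cells with the highest doublet scores were left out, *Ms4a7* at 7 dpi was 58.5 CPM in endothelial cells (44.7 to 75.3) and 156 CPM in microglia (147 to 166), against 150 and 169 CPM in all cells. Astrocytes were at 149 CPM (94.7 to 224, 58 cells) against 212 CPM, and T cells at 336 against 365 CPM. The microglial level was then above the endothelial one without overlap of intervals, and its interval lay within that of astrocytes. How many doublets of each cluster went uncalled was not tested, so the cells behind the remaining levels cannot be told from this. At 28 dpi the levels without them were 74.3 CPM in microglia (68.2 to 80.8), 12.9 CPM in endothelial cells (5.55 to 25.3), 86.0 CPM in astrocytes and 36.2 CPM in T cells. The ratio of *Ms4a7* to *Ms4a6c* counts also differed between clusters of 1 library. At vehicle 7 dpi *Ms4a7* made up 37.7% of the UMIs of both genes in microglia (35.9% to 39.4%), 60.0% in MDMs, 51.3% in endothelial cells (46.4% to 56.2%), 54.2% in T cells and 53.5% in B cells. Intermediate progenitors at 36.0% (33.8% to 38.2%), astrocytes at 47.0% (35.9% to 58.3%) and neutrophils at 45.1% (37.5% to 52.8%) overlapped microglia. Monocytes were at 32.5%.

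Within the microglia cluster *Ms4a7* was lower in cells that carried a homeostatic transcript. Cells were divided by a UMI of *P2ry12*, *Tmem119* or *Siglech*, a split chosen after values were seen, with every cell thinned to 1000 UMIs. At vehicle 7 dpi the 1188 cells with such a UMI were at 92.6 CPM and the 796 without at 255 CPM, a log2 ratio of -1.46 (-1.81 to -1.12). At 28 dpi the values were 48.8 and 124 CPM (-1.35, -1.74 to -0.96). *Ms4a6c* went the same way by less, at 192 and 337 CPM at 7 dpi (-0.81, -1.07 to -0.55) and 195 and 283 CPM at 28 dpi (-0.54, -0.76 to -0.32). The summed level of the MDM markers in microglia was 68.7 CPM in vehicle sham, 4299 CPM at 7 dpi and 4404 CPM at 28 dpi, and *P2ry12* was at 2410, 351 and 510 CPM. Their part in the microglial *Ms4a7* was not tested.

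*Ms4a6c* in microglia was at 79.2 CPM in vehicle sham (67.6 to 92.2), 280 CPM at 7 dpi (267 to 293) and 228 CPM at 28 dpi (218 to 239), both injured libraries above sham, with log2 ratios of 1.82 (1.59 to 2.06) and 1.52 (1.29 to 1.76). The level was 4.08-fold that of endothelial cells in sham (1.84 to 11.3), 1.96-fold at 7 dpi and 2.81-fold at 28 dpi. For *Ms4a6d* these folds over endothelial cells were 20.6, 2.94 and 3.47, and for *Ms4a6b* 13.4, 3.37 and 2.07, so all 3 genes were above the endothelial level in each vehicle library. Against astrocytes *Ms4a6c* was 30.9-fold, 1.17-fold (0.87 to 1.61) and 1.39-fold (1.09 to 1.80), *Ms4a6d* 52.1-fold, 0.87-fold (0.59 to 1.33) and 2.10-fold (1.44 to 3.2), and *Ms4a6b* 22.6-fold, 1.20-fold (0.68 to 2.34) and 1.71-fold (0.99 to 3.23). None of the 3 genes was thus apart from the astrocyte level at 7 dpi. The sham folds of *Ms4a6d* and *Ms4a6b* rest on 2 endothelial UMIs each. Those over sham astrocytes rest on 2 astrocyte UMIs of *Ms4a6c*, 2 of *Ms4a6d* and 3 of *Ms4a6b*. *Ms4a6d* in microglia was at 134, 122 and 137 CPM, the nearest to level of the members, and its ratios to sham were -0.13 (-0.32 to 0.08) and 0.04 (-0.15 to 0.23). *Ms4a6b* was at 86.8, 78.4 and 53.6 CPM, lower at 28 dpi by -0.70 (-0.95 to -0.44). *Ms4a4c* was at 15.7, 18.2 and 28.6 CPM, higher at 28 dpi by 0.86 (0.33 to 1.44), and past 2-fold with TMM (1.29) or DESeq2 (1.33) factors. *Ms4a4b* had 0, 6 and 17 UMIs in this cluster.

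Counting members in microglia, 2 of 5 tested (*Ms4a6c* and *Ms4a7*) were at least 2-fold higher at 7 dpi than sham, against 4.02% of 6623 genes, and the same 2 at 28 dpi, against 3.62% of 7162 genes. None was 2-fold lower, against 21.5% and 12.5% of genes. *Ms4a7* had 0 UMIs in sham and met the UMI minimum through the injured libraries alone (1141 UMIs at 7 dpi, 608 at 28 dpi). It could therefore be counted only as higher, and its part in these counts is no comparison with the percent of genes. *Ms4a6c*, with 166 UMIs in sham, met the minimum in that library by itself. Between 28 and 7 dpi *Ms4a7* was 2-fold lower, against 0.323% of 7740 genes (0.982% in either direction). The median of all genes in these sham comparisons was itself below 0, at -0.54 and -0.44. With TMM or DESeq2 factors that median was near 0, and the 7 dpi ratio of *Ms4a6d* was 0.42 and 0.50 and that of *Ms4a6b* 0.40 and 0.48, so that their sign in microglia depends on the scaling.

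**Figure D4:**
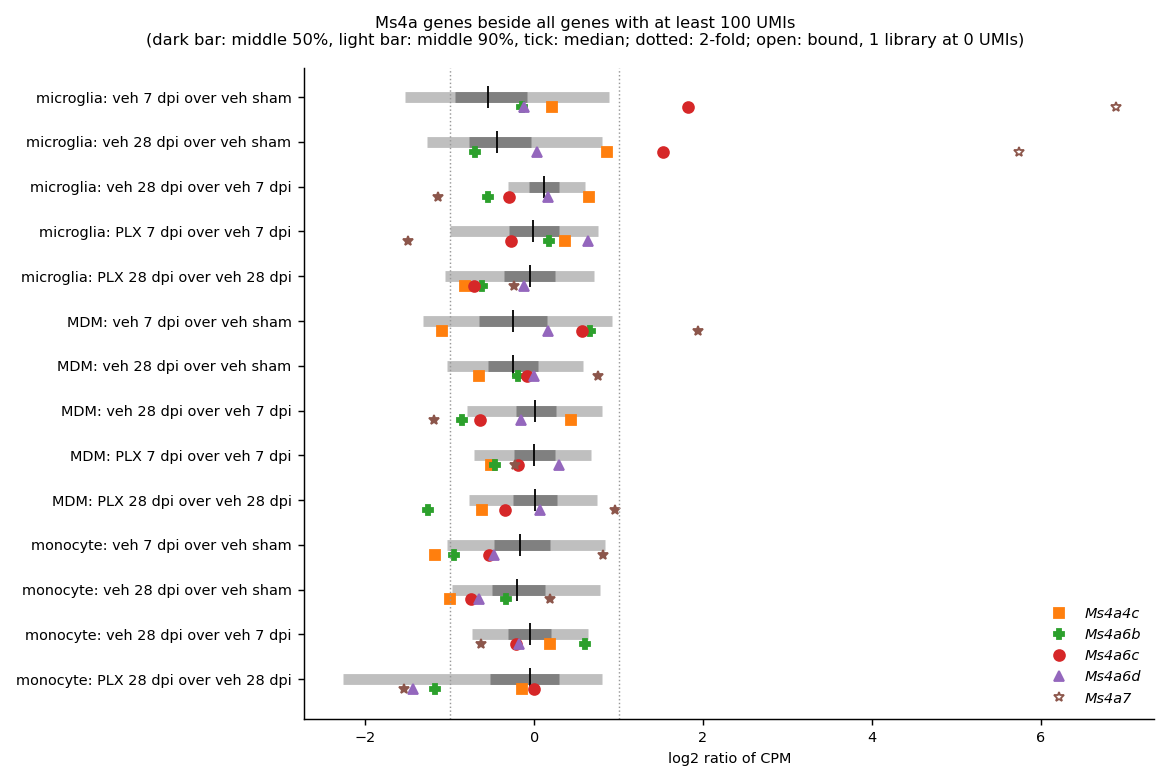
Log2 ratio of each Ms4a gene (points) beside all genes whose UMIs in the pair of libraries come to 100 or more (dark bar the middle 50%, light bar the middle 90%, tick the median), for microglia, MDMs and monocytes. Open points are bounds at a floor of 3 counts. *Ms4a7* lies above the other members in each injury comparison with sham, and *Ms4a4b* is not drawn because it had under 100 UMIs in these clusters.

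In monocytes 4 of 5 members were lower in both injured libraries than in sham, where the median gene was also lower, by log2 ratios of -0.16 at 7 dpi and -0.20 at 28 dpi. *Ms4a6c* was at 1167 CPM in vehicle sham (1070 to 1271), 808 CPM at 7 dpi (771 to 847) and 695 CPM at 28 dpi (632 to 763), lower in both injured libraries by log2 ratios of -0.53 (-0.67 to -0.39) and -0.75 (-0.93 to -0.56). *Ms4a4c* was at 325, 144 and 163 CPM, with ratios of -1.18 (-1.46 to -0.89) and -0.99 (-1.37 to -0.62). *Ms4a6b* was at 384, 200 and 304 CPM, with ratios of -0.94 (-1.20 to -0.68) and -0.34. *Ms4a6d* was at 259, 186 and 165 CPM, with ratios of -0.48 (-0.78 to -0.17) and -0.65 (-1.05 to -0.26). *Ms4a7* alone was higher, at 222 CPM in sham, 389 CPM at 7 dpi and 252 CPM at 28 dpi, by 0.81 (0.51 to 1.12) and 0.19 (-0.18 to 0.56). Of 5 members, 1 was at least 2-fold lower at 7 dpi, against 5.52% of 3387 genes, and none higher, against 3.48%. With TMM or DESeq2 factors *Ms4a4c* did not pass 2-fold there (-0.93 and -0.84) and *Ms4a7* did (1.06 and 1.15). None was 2-fold apart at 28 dpi from sham, against 7.52% of genes, or from 7 dpi, against 3.6%. The sham cluster held 75 cells.

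This cluster mixes monocytes with dendritic cells, and *Ms4a7* was not even across it. At vehicle 7 dpi, thinned cells with a UMI of *Flt3*, *Zbtb46*, *Xcr1*, *Clec9a*, *Cd209a* or *Itgax*, genes of dendritic cells, were at 70.2 CPM (114 cells) and cells without at 407 CPM (467 cells), a log2 ratio of -2.54 (-3.77 to -1.53). At 28 dpi the levels were 103 and 350 CPM (-1.77, -3.68 to -0.35). *Ms4a6d* differed in the same direction at 7 dpi, at 78.9 and 188 CPM (-1.26, -2.43 to -0.27), as did *Ms4a6b* at 114 and 246 CPM (-1.11, -2.06 to -0.28). *Ms4a6c* was closer, at 728 and 940 CPM (-0.37, -0.73 to -0.03). The cluster was also split by genes of border macrophages, the macrophages of meninges and vessels (*Mrc1*, *Cd163*, *Lyve1*, *F13a1*, *Pf4*, *Cbr2* and *Folr2*). A UMI of one of them was in 38 of 66 thinned cells of vehicle sham, 184 of 581 at 7 dpi and 122 of 245 at 28 dpi. All 15 *Ms4a7* UMIs of thinned sham cells lay in such cells, and at 7 dpi the levels with and without were 527 and 254 CPM (1.05, 0.63 to 1.47). The same split of vehicle 7 dpi microglia gave 253 and 140 CPM of *Ms4a7* (0.85, 0.46 to 1.23), whereas in 7 dpi MDMs the interval held 0 (-0.08 to 0.19). At vehicle 28 dpi the interval held 0 in microglia, at 66.7 and 78.2 CPM (-0.23, -1.87 to 1.01). It did not in MDMs of that library, at 495 and 337 CPM (0.56, 0.14 to 0.95).

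Monocytes with a UMI of an interferon-stimulated gene such as *Ifit3* or *Isg15* had more *Ms4a4c*, at 241 against 125 CPM at vehicle 7 dpi (0.95, 0.35 to 1.55) and 266 against 124 CPM at 28 dpi (1.10, 0.18 to 2.09). In microglia the same split gave 44.0 and 21.5 CPM of *Ms4a4c* at 28 dpi (1.03, 0.41 to 1.66), and at 7 dpi 22.3 and 15.6 CPM with an interval that held 0. Some other members were higher on that side too. At 7 dpi the log2 ratio in monocytes was 0.64 for *Ms4a6b* (0.11 to 1.16), 0.54 for *Ms4a7* (0.13 to 0.96) and 0.33 for *Ms4a6c* (0.08 to 0.59). In monocytes of vehicle 28 dpi the interval held 0 for *Ms4a6b* (0.46, -0.18 to 1.10) and *Ms4a7* (0.35, -0.34 to 1.05). The 7 dpi microglia gave 0.80 for *Ms4a7* (0.47 to 1.13) and 0.59 for *Ms4a6c* (0.33 to 0.84), and those of 28 dpi 0.97 (0.59 to 1.34) and 0.35 (0.12 to 0.57). Others were not, or only at 1 day. *Ms4a6d* in microglia was higher at vehicle 7 dpi, at 145 against 106 CPM (0.46, 0.08 to 0.84), but not at 28 dpi (log2 interval -0.30 to 0.29). *Ms4a4c* in MDMs was higher at vehicle 7 dpi, at 18.1 against 7.72 CPM (1.23, 0.20 to 2.33), but not at 28 dpi (-0.10, -1.07 to 0.80). In monocytes at PLX5622 28 dpi *Ms4a4c* was at 37.0 against 118 CPM, on 1 and 4 UMIs.

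With the libraries pooled, T cells had the highest level of *Ms4a4b* and *Ms4a6b* among the clusters. *Ms4a4b* was at 1890 CPM in vehicle sham (1732 to 2059, 67 cells), 792 CPM at 7 dpi (704 to 888, 153 cells) and 1126 CPM at 28 dpi (1045 to 1213, 349 cells), highest in sham and lowest at 7 dpi without overlap. The log2 ratios to sham were -1.26 (-1.47 to -1.05) and -0.75 (-0.91 to -0.58), and the former was under 2-fold with TMM factors (-0.96) or each cell weighted alike (-0.93). *Ms4a6b* followed the same order at 533, 276 and 340 CPM, with ratios of -0.95 (-1.33 to -0.58) and -0.65 (-0.96 to -0.34). In the same cluster *Ms4a7* went from 0 UMIs to 365 and 103 CPM, and the MDM markers summed to 50.4, 6326 and 5505 CPM. Their part in the lower *Ms4a4b* and *Ms4a6b* was not tested. Among 4 members tested at 7 dpi, 2 were at least 2-fold higher than sham and 1 lower, against 10.8% and 7.83% of 779 genes. The higher members were *Ms4a7* (0 UMIs in sham, 135 at 7 dpi) and *Ms4a6c* (10 and 114). Both met the UMI minimum for the pair of libraries only through their 7 dpi counts, so they could be counted only as higher. The count of higher members is therefore no comparison with the percent of genes. With 64 and 81 UMIs at 28 dpi, both fell below the minimum against sham. At 28 dpi 0 of 2 tested were 2-fold apart from sham, against 14.7% of genes, and 2 of 4 were lower than at 7 dpi, against 1.18%. The thinned share of T cells with an *Ms4a4b* UMI was 86.9% in vehicle sham, 57.9% at 7 dpi and 64.3% at 28 dpi, against 0.334% of endothelial cells at 7 dpi, at median depths of 1510 and 2409 UMIs per cell in the 7 dpi library.

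The T cell cluster also contains natural killer (NK) cells, and *Ms4a4b* and *Ms4a6b* were read on either side of 2 splits. Over thinned cells at vehicle 28 dpi, *Ms4a6b* was at 439 CPM in cells with a UMI of *Cd3d*, *Cd3e* or *Cd3g*, subunits of the T cell receptor complex, and at 243 CPM in cells without (0.85, 0.08 to 1.71). In vehicle sham these levels were 765 and 222 CPM (1.78, 0.47 to 3.35). At vehicle 7 dpi they were 412 and 208 CPM, with an interval that held 0 (0.99, -0.06 to 2.14). Split by NK genes such as *Ncr1* and *Klrb1c*, sham cells with a UMI were at 207 CPM and cells without at 812 CPM (-1.97, -3.54 to -0.66). *Ms4a4b* was higher in cells with a UMI of the *Cd3* genes at 7 dpi, at 1294 and 717 CPM (0.85, 0.29 to 1.44), and at 28 dpi, at 1503 and 1071 CPM (0.49, 0.11 to 0.88), and was at 2206 and 1963 CPM in sham (0.17, -0.36 to 0.70). It was at 2310 and 1906 CPM in the sham NK split (0.28, -0.24 to 0.80) and at 1654 and 1302 CPM at 28 dpi (0.35, -0.03 to 0.71). At 28 dpi *Ms4a6b* was at 250 and 418 CPM in the NK split, with an interval of the log2 ratio from -1.71 to 0.11. At vehicle 7 dpi it was at 286 and 333 CPM in that split (-0.22, -1.55 to 0.93).

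Under PLX5622 few myeloid cells remained, with 29, 61 and 126 microglia, 9, 100 and 161 MDMs and 14, 29 and 63 monocytes in sham, 7 dpi and 28 dpi. *Ms4a7* of PLX5622 sham is listed at 0 in the table, because genes found in fewer than 3 cells of a library were set to 0 there, and the library's own matrix holds 2 UMIs in 2 cells of the MDM cluster. No ratio to that library is given for it. *Ms4a7* in MDMs was 605 CPM at PLX5622 7 dpi (569 to 642) and 605 CPM at PLX5622 28 dpi (563 to 649), against 709 and 312 CPM under vehicle. The log2 ratio of PLX5622 to vehicle was -0.23 at 7 dpi (-0.32 to -0.14) and 0.95 at 28 dpi (0.84 to 1.07), so that the later PLX5622 library kept the level of the earlier one while the vehicle library did not. The thinned share of MDMs with a UMI was 42.4% at PLX5622 7 dpi and 38.0% at PLX5622 28 dpi. At 7 dpi none of 5 members of MDMs was 2-fold apart, against 4% of genes. At 28 dpi none was 2-fold higher, against 2.33% of genes. *Ms4a6b* was lower there at 14 against 33.3 CPM (-1.25, -2.02 to -0.58), 1 of 5 members against 2.48% of 7635 genes. Thinned MDMs of PLX5622 28 dpi held 0 *Ms4a6b* UMIs, so the -0.77 found with them is only a bound at the floor of 3 counts. *Ms4a6c* was at 414 and 238 CPM, below vehicle by -0.19 (-0.30 to -0.08) and -0.35 (-0.52 to -0.18), and *Ms4a6d* at 222 and 170 CPM.

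The microglia that remained under PLX5622 carried *Ms4a7* at 60.0 CPM at 7 dpi (38.0 to 90, 23 UMIs) and 65.1 CPM at 28 dpi (43.3 to 94.2, 28 UMIs). Endothelial cells of these libraries were at 10.6 and 4.30 CPM, on 6 UMIs and 1 UMI, and astrocytes had 0 UMIs at both days. These microglia were 5.65-fold (2.24 to 17.0) and 15.1-fold (2.50 to 619) the endothelial level. The MDM markers in these microglia summed to 2082 and 921 CPM, against 4299 and 4404 CPM under vehicle. PLX5622 was below vehicle by -1.49 at 7 dpi (-2.16 to -0.90), 1 of 5 members against 4.88% of 5616 genes (6.77% in either direction), and by -0.24 at 28 dpi (-0.84 to 0.31), where none of the 5 was 2-fold apart, against 7.5% of genes. The 28 dpi ratio was 0.49 with each cell weighted alike and 0.18 in thinned cells. *Ms4a6c* in these microglia was at 77.7, 232 and 140 CPM in PLX5622 sham, 7 dpi and 28 dpi, and *Ms4a6d* at 162, 190 and 126 CPM.

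Monocytes under PLX5622 at 28 dpi were lower in 3 of the 5 members tested, against 13.1% of 1184 genes. *Ms4a7* was at 86.6 CPM against 252 CPM under vehicle (-1.54, -2.19 to -0.95, but -0.78 and not 2-fold in thinned cells), *Ms4a6d* at 61 against 165 CPM (-1.43, -2.22 to -0.72) and *Ms4a6b* at 135 against 304 CPM (-1.17, -1.69 to -0.69, but -0.97 without ribosomal protein genes in the total). In thinned cells *Ms4a4c* was lower by -1.26 in place of *Ms4a7*, against -0.14 in all UMIs, so the count stayed at 3 with other members. *Ms4a6c* was at 693 and 695 CPM, with an interval of the log2 ratio from -0.24 to 0.23. In this cluster 29 of 61 thinned cells had a UMI of a dendritic gene in PLX5622 and 39 of 245 in vehicle. In thinned cells without such a UMI *Ms4a7* was at 344 CPM in PLX5622 (172 to 615) and 350 CPM in vehicle (273 to 440), which overlapped. In the same cells *Ms4a6d* was at 62.5 CPM in PLX5622 (7.57 to 226, 2 UMIs) and 209 CPM in vehicle (151 to 281), and *Ms4a6b* at 188 CPM (68.8 to 408, 6 UMIs) and 398 CPM (317 to 494), and these intervals overlapped too. A UMI of a border macrophage gene was in 5 of 61 thinned cells in PLX5622 and 122 of 245 in vehicle, where cells with one had 475 against 252 CPM of *Ms4a6b* (0.92, 0.26 to 1.59) and 377 against 244 CPM of *Ms4a7* (0.63, -0.07 to 1.34). In cells without one the intervals of PLX5622 and vehicle overlapped for *Ms4a7* (85.6 to 328 and 165 to 348), *Ms4a6b* (39.3 to 233 and 171 to 358) and *Ms4a6d* (11 to 157 and 119 to 281). The part of either kind of cell in the lower levels was not tested further. *Ms4a4b* in T cells was at 1424, 1314 and 1471 CPM in the PLX5622 libraries, above vehicle at 28 dpi by 0.39 (0.22 to 0.55), with 1 of 3 members of T cells 2-fold lower (11.1% of genes, *Ms4a6c* at -1.28, but -0.80 in thinned cells and -0.18 without called doublets), but the *Ms4a4b* level was below it without called doublets (-0.15) or with each cell weighted alike (-0.07).

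As a mixture, the UMIs of the 6 members shifted towards *Ms4a7* after injury. A 3' library counts 1 UMI per captured molecule whatever the transcript's length, so shares of UMIs can be set side by side. In microglia *Ms4a7* made up 0%, 25.3% and 14.6% of the members' UMIs in vehicle sham, 7 dpi and 28 dpi, *Ms4a6c* 25.1%, 41.8% and 43.3%, and *Ms4a6d* 42.4%, 18.3% and 26.0%. In MDMs *Ms4a7* was 25.4%, 49.5% and 37.8% under vehicle and 46.8% and 58.4% at 7 and 28 dpi under PLX5622. Monocytes kept *Ms4a6c* in front, at 49.1%, 46.6% and 43.5% under vehicle. After thinning, 2 or more members were found in 34.5% of monocytes, 21.7% of MDMs, 7.84% of microglia and 1.72% of endothelial cells.

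**Figure D5:**
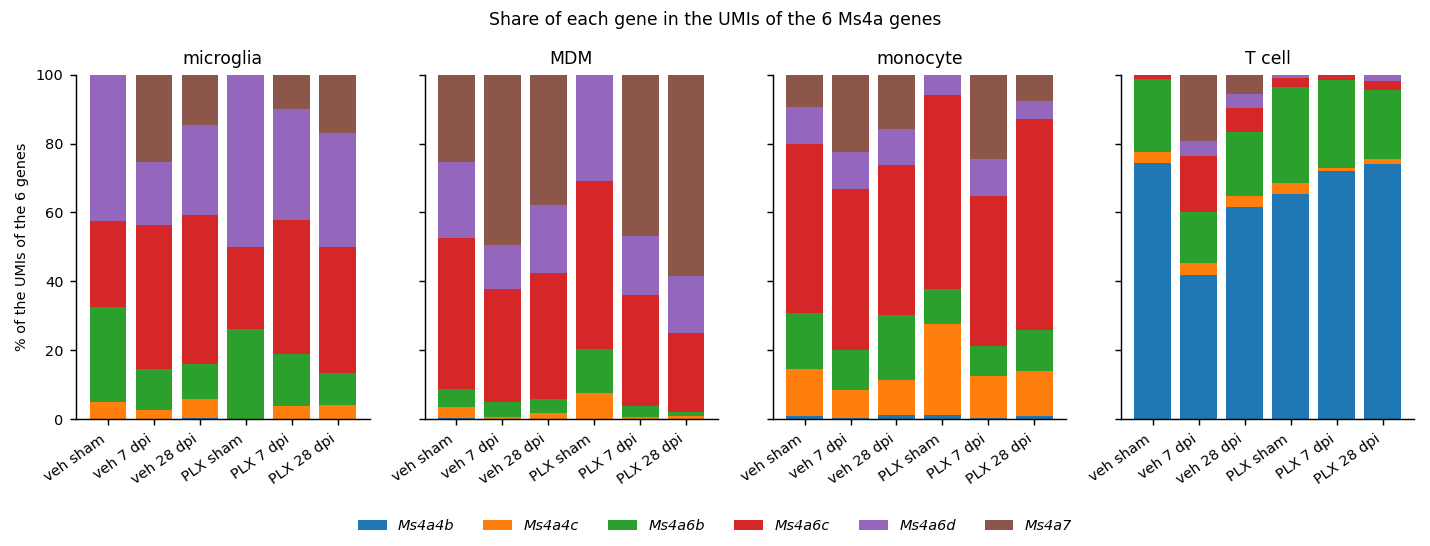
Percent of the 6 members' UMIs that each member makes up in microglia, MDMs, monocytes and T cells, 1 bar per library. *Ms4a7* is absent from the sham bar of vehicle microglia and reaches 58.4% of the MDM bar at PLX5622 28 dpi.

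Genes of like pattern were taken as the 3 of highest Pearson r of log2(CPM + 10) over 48 sums of cluster and library, among 11684 genes. The 48 sums share libraries and depth, so r is a description. *Ms4a4b* was nearest to *Cd3g* (0.974), *Cd3d* (0.958) and *Ctsw* (0.957), and *Ms4a4c* to *Pyhin1* (0.909), *Myo1g* (0.889) and *Gm1966* (0.845). *Ms4a6b* was nearest to *Epsti1* (0.877), *Pik3cd* (0.850) and *Lcp2* (0.847). *Ms4a6c* was nearest to *AI607873* (0.902), its paralog *Ms4a6d* (0.90) and *Bcl2a1b* (0.888). *Ms4a6d* was nearest to *C3ar1* (0.941), *Emr1* (0.925) and *Cd68* (0.915), receptors and lysosomal proteins of macrophages, and *Ms4a7* to *Apoc2* (0.935), *5430435G22Rik* (0.906) and *Tmem106a* (0.90). Between members r was lowest for *Ms4a4b* with *Ms4a6d* (-0.038). With a pseudocount of 1 in place of 10, only 6 of these 18 genes stayed in the lists.

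Of 18 other Ms4a and Tmem176 genes listed, 7 were in the table. *Ms4a1* was at 901 CPM in B cells, *Ms4a8a* at 38.7 CPM in monocytes, *Ms4a3*, a gene of early granulocyte and monocyte progenitors, at 38.0 CPM in intermediate progenitors, and *Ms4a2* and *Ms4a4d* had 12 and 3 UMIs in all. *Tmem176a* and *Tmem176b*, which encode related proteins, were at 389 and 623 CPM in vehicle sham MDMs, 134 and 224 CPM at 7 dpi and 430 and 527 CPM at 28 dpi. They were thus lower at 7 dpi by log2 ratios of -1.53 (-1.67 to -1.40) and -1.48 (-1.58 to -1.37), opposite to *Ms4a7* in the same cells. In microglia both were at log2 ratios of 0.03 and -0.06 to sham at 7 dpi.

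Receptors and adaptors that have been tied to Ms4a proteins formed a list of 9 genes. In microglia 3 of 7 tested were at least 2-fold higher at 7 dpi than sham and 1 was lower, beside the 4.02% and 21.5% of all genes, and 4 of 7 were higher at 28 dpi, beside 3.62%. *Clec7a*, which encodes the beta-glucan receptor dectin-1, was at 90.2 CPM in vehicle sham, 440 CPM at 7 dpi and 570 CPM at 28 dpi, with ratios of 2.29 (2.07 to 2.51) and 2.66 (2.45 to 2.88). *Tyrobp*, a signaling adaptor, was at 2556, 6454 and 5786 CPM (1.34 and 1.18), and its partner *Trem2* at 2829, 3415 and 3219 CPM (0.27 and 0.19). *Orai1*, a calcium channel, was at 251, 119 and 137 CPM (-1.08 and -0.87). In MDMs 1 of 7 was 2-fold higher at 7 dpi, *H2-Aa*, beside 4.09% of all genes, and *Trem2* was at -0.13 (-0.17 to -0.09). The median log2 ratio over the 7 was 0.98 in microglia at 7 dpi, beside 0.21 over the 5 members and -0.54 over all genes. The list also differed in the T cell cluster, where MDM markers, given above, were higher after injury and *Ms4a7* went from 0 UMIs to 365 CPM at 7 dpi. There 3 of 4 tested were 2-fold higher at 7 dpi than sham, beside 10.8% of all genes, with a median of 2.82. The highest 5% of all genes in that comparison were at 2.89 or more. At 28 dpi 4 of 5 were higher than sham, beside 14.7% of genes in either direction. Under PLX5622 5 of 5 were lower than vehicle at 28 dpi, beside 11.1%, and *Ms4a7* in that cluster was at 5.09 against 103 CPM. How much of these counts came from macrophages was not tested.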

How the data were processed

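Single-cell suspensions of mouse spinal cord were run on 10x 3' v3 chips, aligned with Cell Ranger and clustered with Seurat by the authors, per the labels and the methods of the study. GRCm38 and mm10 are named in the submitters' processing notes, and the version of the alignment reference is not given in the sources used here. The authors deposited raw UMI counts per gene and cell, in 1 table of the series and in 6 library matrices. Each cell of the table carries the number of 1 of 14 clusters (resolution 0.15). The cluster names used here were given from the marker lists. Bulk samples of the series were not analysed here. The table held 21016 of 21270 barcodes of the matrices. The 254 others had under 200 genes. A gene found in fewer than 3 cells of a library was 0 in the table. The stated limits of 200 and 3000 genes per cell would leave 20298 barcodes of the matrices, and 716 table cells exceed 3000 genes. These figures do not add up exactly to the cells of the table, and the reason was not looked into. No mitochondrial genes were present.

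Counts were summed per cluster and library and divided by the cluster's total to give CPM. With 1 library per group no test was made and no count model was fitted. Intervals (95%) are exact Poisson for levels, conditional binomial for ratios and Clopper-Pearson for shares, and a level of 0 UMIs was set to a floor of 3 counts per library in ratios. A ratio was counted where it reached 2-fold for a gene with a joint total of 100 or more UMIs. Shares of cells with a UMI used cells thinned to 1000 UMIs, which left out 2816 cells. The ratio step was tested on simulated data. Doublets were scored with Scrublet (in scanpy), and the highest 0.8% per 1000 cells of a library were called and kept in the main values. Whether the authors removed doublets is not given in the sources used here.

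Genes named in the text are the 6 members, other Ms4a and Tmem176 genes, the 3 genes of highest r with each member and genes of fixed lists on which a result turns. The members and lists were chosen with earlier results of these data known. *Ms4a2* and *Ms4a4d*, below the 100 UMIs of that rule, were named after their values were seen. Alternatives were TMM factors (edgeR 4.0.16), DESeq2 1.42.0 size factors, totals without 90 ribosomal protein genes, thinned cells, cells with at least 500 genes, cells not called doublets, each cell weighted alike, other UMI minimums and, chosen after seeing the data, cells with no barcode in another library and the split of microglia by 3 homeostatic genes. Sequences were read from RefSeq promoters and positions from GENCODE vM21. Python 3.11.15, scipy 1.17.1, scanpy 1.11.5 and R 4.3.3 were used.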

Additional observations from a re-analysis of the deposited data

Results flagged for a closer look

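*Ms4a6c* differed in direction between clusters of the same libraries, and the differences were not tested. At 7 dpi its log2 ratio to vehicle sham was 1.82 in microglia, -0.53 in monocytes and 3.10 in T cells. At 28 dpi the ratio was 1.52 in microglia and -0.75 in monocytes. The T cell level at 7 dpi (308 CPM) stood beside 142 CPM in endothelial cells and 239 CPM in astrocytes of that library.

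*Ms4a7* under PLX5622 differed in direction between clusters and days, also not tested. At 28 dpi the log2 ratio of PLX5622 to vehicle was 0.95 in MDMs and -1.54 in monocytes. The monocyte ratio was -0.78 in thinned cells, under 2-fold. In MDMs it was -0.23 at 7 dpi and 0.95 at 28 dpi. Each value compares 1 library with 1 library, from 100 and 161 MDMs and 63 monocytes under PLX5622.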

How the results depend on the processing

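No paired analysis was possible because each group is 1 library, and no library could be left out for the same reason. Over 83 ratios of members and 8 alternatives, 559 of 664 values moved by less than their interval and 105 moved further. No ratio counted as 2-fold turned its direction, 29 values crossed 2-fold and 33 changed sign, the cause of which was not tested. A count that stayed can hold other members, as in monocytes 7 dpi over sham (TMM, DESeq2) and PLX5622 over vehicle at 28 dpi (thinned). With no minimum of UMIs the members counted were 2 for microglia 28 over 7 dpi (1 with the minimum). They were 2 for MDMs 28 over 7 dpi (1), 2 for monocytes 7 dpi over sham (1) and 1 for monocytes 28 over 7 dpi (0). In T cells they were 3 for 28 dpi over sham (0) and 3 for PLX5622 over vehicle at 28 dpi (1). Ratios of PLX5622 to vehicle gave 2 and 1 for microglia at 7 and 28 dpi (1 and 0) and 1 for MDMs at 7 dpi (0). The added member in those microglia and MDMs was *Ms4a4b*, with 0 UMIs under PLX5622 and a floor of 3 counts above its vehicle level. Such added counts come from the floor and say nothing of a change. For MDMs 7 dpi over sham the count was 1 in place of 2 with TMM factors or each cell weighted alike, and for MDMs 28 dpi over sham 1 in place of 0 with TMM factors, DESeq2 factors or thinned cells. Thinned cells gave 1 in place of 0 for MDMs PLX5622 over vehicle at 7 dpi. That member was *Ms4a4c*, with 0 UMIs in the thinned PLX5622 cells and a floor of 3 counts above its vehicle level. The count there comes from the floor and says nothing of a change. With each cell weighted alike the count was 2 in place of 1 for monocytes 7 dpi over sham, 1 in place of 0 for monocytes 28 dpi over sham and 1 in place of 2 for T cells 28 over 7 dpi. For T cells PLX5622 over vehicle at 28 dpi it was 0 in place of 1 in thinned cells, without called doublets and with each cell weighted alike.

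The percent of all genes 2-fold apart moved with the minimum of 50 or 200 UMIs, which changes the genes tested. It was 1.82 and 0.634 for microglia 28 over 7 dpi (0.982 at 100 UMIs), 10.2 and 3.62 for microglia PLX5622 over vehicle at 7 dpi (6.77) and 6.02 and 2.54 for MDMs at 7 dpi (4), and 4.43 at 200 UMIs for microglia at 28 dpi (7.5). Without thinning, shares of cells with a UMI at 7 dpi were 83.1% for *Ms4a7* in MDMs, 19.4% for *Ms4a7* in microglia and 79.2% for *Ms4a6c* in monocytes, and 95.5% for *Ms4a4b* in sham T cells. With a pseudocount of 1, 6 of 18 genes of like pattern stayed. Leaving out cells with shared barcodes was chosen after seeing the data. The number of cells limits the PLX5622 sham library most, with 9 MDMs and 14 monocytes.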
